A study of Rattus norvegicus with 4 samples.

Results

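Potassium channel subunits of the pregnant rat uterus were taken as all genes whose symbol starts with Kcn, with Lrrc26, Lrrc38, Lrrc52 and Lrrc55, which encode gamma subunits of the large-conductance channel. They number 91 of the 18166 genes tested, 87 channel genes and the 4 Lrrc genes. Each gene stands by its brightest probe set, which mattered only for Kcnk6, the single member with more than 1. Lrrc26 was put in the family because its signal was known to differ between the groups, so its difference is described here without a test. The other members were chosen by name, though with earlier results of these data known. Uterine RNA came from Sprague Dawley rats of 10 to 12 weeks on day 5 of pregnancy, before implantation, with 1 array per biological replicate and 4 arrays in all. In the ormeloxifene group (2 arrays) rats were fed 1.25 mg per kg of the drug in gum acacia on day 1; in the vehicle group (2 arrays) they received only the vehicle. The drug is a non-steroidal modulator of oestrogen receptors that is taken as an oral contraceptive. Whether rats were pooled was not given in the sources used here. Precision throughout is limited by the number of arrays.

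Potassium channels let potassium leave the cell and pull the membrane towards rest, so in the myometrium they oppose the calcium entry that drives contraction. The large-conductance channel, also called BK, opens with depolarization and with calcium; its pore is encoded by Kcnma1, beta subunits tune its calcium response, and gamma subunits such as LRRC26 let it open at resting voltage and calcium in secretory epithelia. In epithelia, potassium channels also set the driving force for chloride and fluid secretion. Whole uterus was measured, so fewer cells of a type and less RNA per cell cannot be told apart.

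The 250 bases before the annotated start are shown for Lrrc26, which had the largest difference in the family, for Kcnma1 and Kcnmb1, its channel partners whose signals were alike in both groups, and for Kcnh1, which had the largest difference in the other direction. They are RefSeq sequences of the rat build GRCr8, all on the + strand, 5′ to 3′. Capitals mark matches, on either strand, to the Sp1 box GGGCGG or to GGTCA, a single arm of the oestrogen response element.
Lrrc26, chr3:28500267-28500516: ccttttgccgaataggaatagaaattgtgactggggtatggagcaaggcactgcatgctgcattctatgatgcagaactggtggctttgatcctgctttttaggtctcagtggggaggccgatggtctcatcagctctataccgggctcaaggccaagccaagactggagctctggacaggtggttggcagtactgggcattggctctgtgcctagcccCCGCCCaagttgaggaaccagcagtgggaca
Kcnma1, chr15:351675-351924: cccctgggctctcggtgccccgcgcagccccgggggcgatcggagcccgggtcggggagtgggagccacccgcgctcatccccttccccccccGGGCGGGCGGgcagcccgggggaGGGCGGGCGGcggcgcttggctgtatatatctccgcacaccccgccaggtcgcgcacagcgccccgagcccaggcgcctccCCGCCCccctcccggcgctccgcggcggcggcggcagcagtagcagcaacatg
Kcnmb1, chr10:19061849-19062098: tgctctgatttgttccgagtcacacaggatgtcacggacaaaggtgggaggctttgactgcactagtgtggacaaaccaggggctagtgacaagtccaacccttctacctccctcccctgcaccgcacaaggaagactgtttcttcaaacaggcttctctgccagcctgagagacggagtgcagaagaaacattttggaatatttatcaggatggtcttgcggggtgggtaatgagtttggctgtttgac
Kcnh1, chr13:106252966-106253215: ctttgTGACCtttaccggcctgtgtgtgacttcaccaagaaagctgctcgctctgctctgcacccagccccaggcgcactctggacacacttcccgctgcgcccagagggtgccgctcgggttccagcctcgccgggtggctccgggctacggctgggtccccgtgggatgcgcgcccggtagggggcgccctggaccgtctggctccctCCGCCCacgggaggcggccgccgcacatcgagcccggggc

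The Lrrc26 sequence held 1 Sp1 box, beginning 31 bases before the start, and Kcnma1 held 5 in a stretch of 79.6% G and C. Kcnmb1, at 50.8% G and C, held none of the motifs searched, and Kcnh1 held 1 GGTCA arm and 1 Sp1 box. The promoter table had entries for 64 of the 91 members. Over these, 31 (48.4%) held an Sp1 box, against 45.3% of the 14564 promoters of genes on the array, and 16 (25.0%) held GGTCA, against 33.8%. The complete oestrogen response element (GGTCA, any 3 bases, TGACC) was in 0 of the 64 and in 8 of all 33469 promoters, and the progesterone and glucocorticoid element (AGAACA, any 3 bases, TGTTCT) in 0 and 4. The AP-1 site TGANTCA was in 2 members (Kcne1 and Kcnj16; 5.64% of genes on the array), the TATA box TATAAA in 2 (Kcnj1 and Kcnj13; 11.3%) and the CArG box in 0 (1.27%). A match is a description of letters, not of binding, and no match says only that the letters are not in this window.

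The values are log2 signals after quantile normalization. The deposited table carries no call of detection, so a reference was taken from 1344 olfactory and vomeronasal receptor genes, which the uterus is taken to express little. The 95th percentile of these receptors lay between 5.85 and 6.27 on the 4 arrays. Signal depends on the probes as well as on the transcript, so the reference separates bright from dim members and no order between genes is read from it. Of the 91 members, 23 (25.3%) exceeded the reference on all 4 arrays, against 46.4% of all genes, and 44 (48.4%) did so on none, against 36.1%. With the 99th percentile of the receptors in its place, 11 members remained above: Kcnma1, Kcnmb1, Kcnn3, Kcnd3, Kcnab1, Kcnip1, Kcnip3, Kcne4, Kcnh1, Kcnj8 and Kcnk1.

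**Figure D1:**
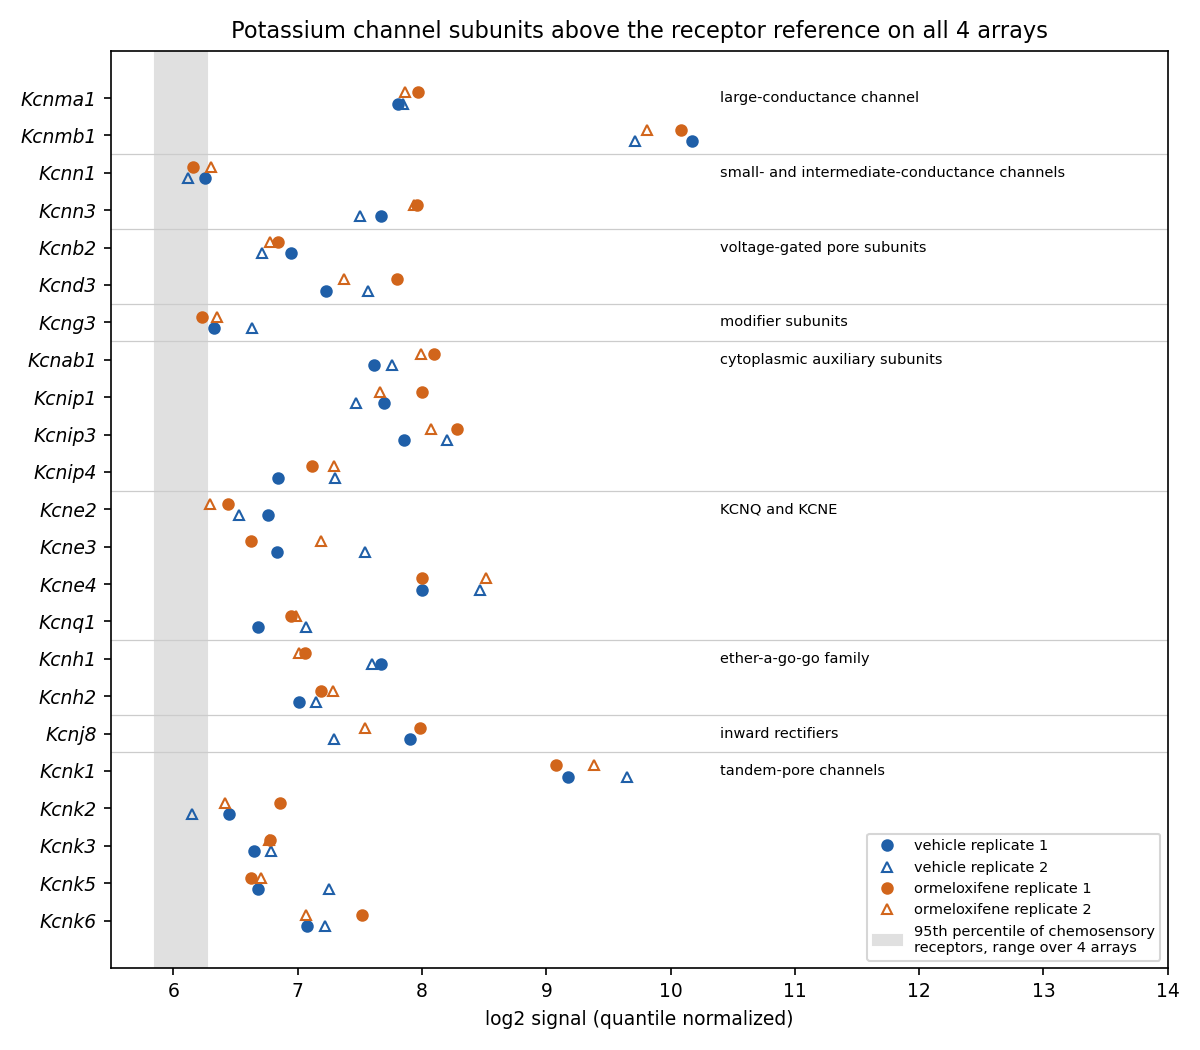
Log2 signal (x axis) of the 23 members above the receptor reference on all 4 arrays, in family order (y axis); each point is 1 array, blue for vehicle and orange for ormeloxifene, circles replicate 1 and triangles replicate 2, and the grey band runs from 5.85 to 6.27, the range of the per-array reference. Kcnmb1 lay between 9.71 and 10.18, far from the band, and Kcnn1, Kcng3 and Kcnk2 had points inside it because each array is set against its own reference.

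Markers of the main uterine layers were bright: 9 of 9 stromal markers, 7 of 8 smooth muscle markers and 8 of 10 epithelial markers exceeded the reference on all 4 arrays. Gland markers did so in 1 of 4, Sox17, while the gland regulator Foxa2 did so on 1 array and Prss29 and Spink1 on none. Of the nerve and glial markers 0 of 5 exceeded it on all 4, of the adipose markers 0 of 4, and of the skeletal muscle markers 1 of 3, Acta1. Oviduct and blood markers were not analysed here. Between the groups, 8 of 8 smooth muscle markers had the higher mean with ormeloxifene, as had 9702 of all 18166 genes. The median difference of these markers was 0.28, and 0 of them had an unadjusted p under 0.05 by limma. Epithelial markers were higher in 5 and lower in 5 of 10, at a median of 0.04 that was -0.01 with arrays centred on their medians. Of the 10, 2 stood at an unadjusted p under 0.05, in opposite directions. The epithelial transcription factor gene Ehf differed by 0.67 (limma, unadjusted p = 0.0160, adjusted p = 1.00) and Elf3, of the same kind, by -0.48 (limma, unadjusted p = 0.0492, adjusted p = 1.00).

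In the large-conductance channel, the pore gene and the smooth muscle beta subunit were bright and alike in both groups, and Lrrc26, the member chosen for its difference, was brighter with ormeloxifene. Of each pair of values given here and below, the first is replicate 1 and the second replicate 2. Lrrc26 (probe set 17759877) read 5.94 and 5.80 with vehicle and 7.33 and 7.10 with ormeloxifene. Both vehicle arrays lay under the receptor reference and both ormeloxifene arrays above it, and the groups did not overlap. The measured difference was 1.35 ± 0.21 on the log2 scale, with 1.39 within replicate number 1 and 1.31 within number 2. The reference of each vehicle array was then set in place of the dimmer value measured there. The vehicle mean became 6.03 and the difference 1.19, 2.27-fold higher with ormeloxifene. This fold takes in no spread between replicates, so it is not a lower limit. Because the member was chosen for its difference, no p is given. Over the 9 alternative settings in which the differences of named genes were refitted, the measured difference ran from 1.23 to 1.47. The replicate number as a block, the filter on signal and the averaging of probe sets could not move it. The list of 10 epithelial markers, the cells in which LRRC26 is best known, averaged 7.43 and 7.57 with vehicle and 7.44 and 7.50 with ormeloxifene; the 4 gland markers averaged 5.13 and 5.86 with vehicle and 5.54 and 5.84 with ormeloxifene. Their part in the difference of Lrrc26 was not tested.

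Kcnma1 (17696933), the pore of the channel, read 7.81 and 7.85 with vehicle and 7.97 and 7.87 with ormeloxifene. The groups did not overlap but lay close together. The difference was 0.09 ± 0.20, with a 95% interval from -0.39 to 0.56 by limma. Kcnmb1 (17644943), the beta subunit of smooth muscle, read 10.18 and 9.71 with vehicle and 10.08 and 9.81 with ormeloxifene. Both groups spanned the same range, replicate 1 being the higher in each, and the difference was 0.005 ± 0.24 (95% interval from -0.56 to 0.57). Its sign turned with the scaling, to -0.03 on the values as deposited and -0.05 with arrays centred on their medians.

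The other subunits of the channel were dim. Kcnmb4, a beta subunit best known from brain, read 6.11 and 6.37 with vehicle and 6.13 and 6.28 with ormeloxifene, above the reference on 3 arrays. Kcnmb2, whose protein inactivates the channel, ran from 4.02 to 4.95 and Kcnmb3 from 4.30 to 4.65 over the 4 arrays, both below the reference throughout. The other gamma subunits were below it too: Lrrc38 ran from 5.38 to 5.64, Lrrc52, a partner of the sperm channel KCNU1, from 4.54 to 5.30, and Lrrc55 from 4.73 to 5.10. Differences of these 6 genes ran from -0.12 for Kcnmb2 to 0.25 for Kcnmb3. The relatives Kcnt1 and Kcnt2, sodium-activated channels, and Kcnu1 differed by -0.22, 0.03 and 0.01, with 0 of the 3 above the reference on all arrays.

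**Figure D2:**
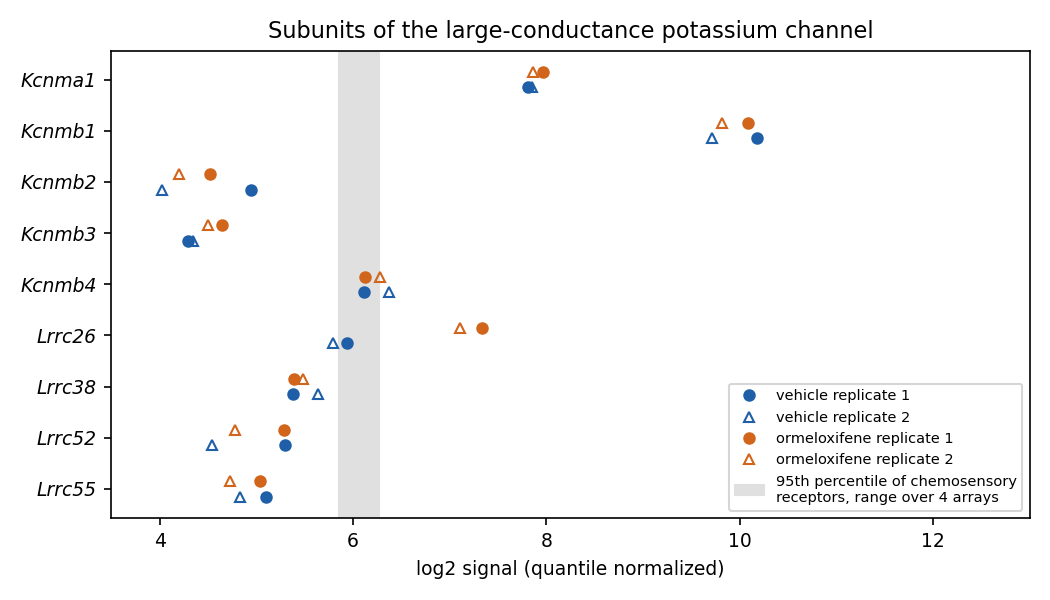
Log2 signal (x axis) of the 9 subunits of the large-conductance channel (y axis) on each of the 4 arrays, blue for vehicle and orange for ormeloxifene, circles replicate 1 and triangles replicate 2; the grey band is the range of the receptor reference over the arrays. The ormeloxifene points of Lrrc26, at 7.10 and 7.33, lie to the right of the band and its vehicle points, at 5.80 and 5.94, just left of its lower edge and just inside it.

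The genes beside Lrrc26 on chromosome 3 are given as a description, without a test. Of the 8 nearest annotated genes on each side, 14 were measured, and their differences ran from -0.25 for Entpd2 to 0.43 for Dpp7. The nearest on either side, Tmem210 and Grin1, read 5.99 and 5.60, and 4.96 and 4.95, with vehicle. With ormeloxifene they read 6.05 and 5.68, and 5.09 and 5.04, differences of 0.075 and 0.11. Grin1 lay under the reference on all 4 arrays and Tmem210 on 3.

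Across the family, differences between the groups were of much the same size as over all genes. By limma over all 18166 genes, 0 genes passed an adjusted p of 0.05 (0% of genes tested), and so 0 of the 90 members other than Lrrc26. Lrrc26 was fitted with the rest and is part of the counts over all genes. Its own outcome is not read, because it was chosen for its difference. The median size of the difference between groups was 0.15 over the 91 members. The median gap of members between replicates was 0.28 in the vehicle group and 0.23 in the ormeloxifene group. Over all genes the 3 medians were 0.14, 0.27 and 0.24. Without any effect, means of 2 arrays differ less than single arrays do, so the difference is not weighed against the gaps. At an unadjusted p under 0.05 stood 2 of the 90 members other than Lrrc26, or 2.22%, against 2.20% of all genes (399 of 18166). They were 1 higher (Kcnj1) and 1 lower (Kcnh1), where the shares of all genes were 1.12% and 1.08%. The groups did not overlap in 24 of the 90, 18 higher and 6 lower with ormeloxifene; among all genes this held for 25.7%, 13.9% higher and 11.8% lower. The share of members without overlap was thus near that of all genes only with both directions pooled. Split by direction, it was larger than that of all genes for higher signal and smaller for lower signal. With or without overlap, 57 of the 90 members were higher and 33 lower, where 9702 of all 18166 genes were higher. Whether the members differ from all genes in direction was not tested. The median difference was 0.05 over the 91 members and 0.02 over all genes. A permutation test of a single gene could not go below an exact p of 0.333 with 2 arrays against 2.

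**Figure D3:**
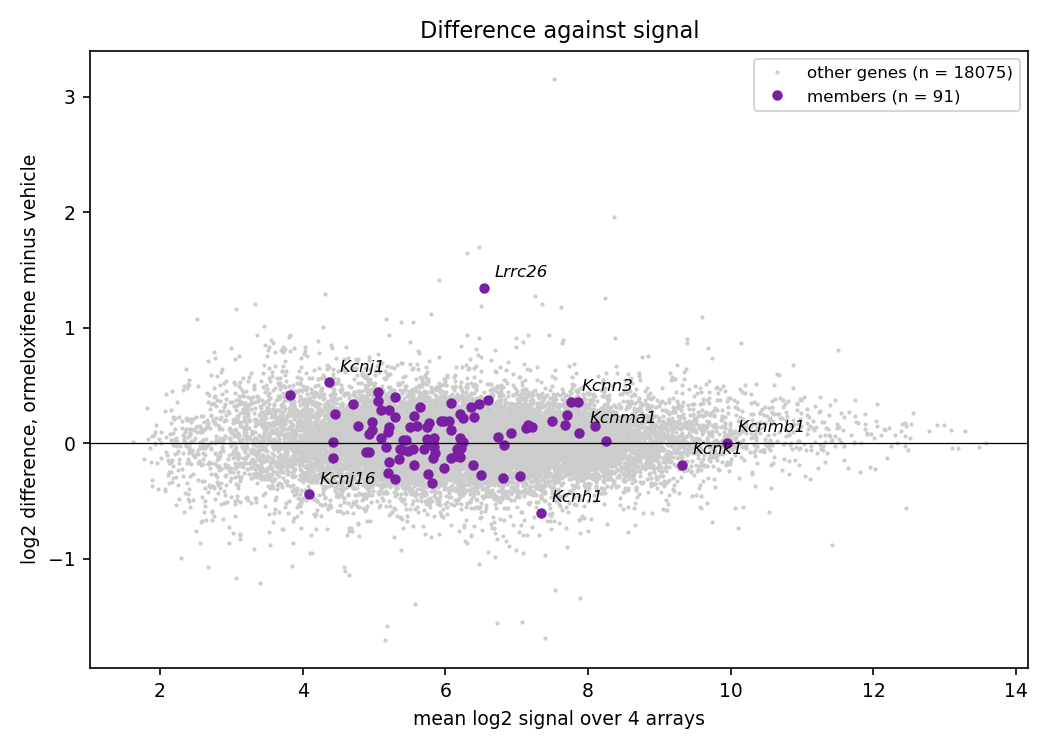
Log2 difference, ormeloxifene minus vehicle (y axis), against the mean log2 signal over the 4 arrays (x axis) for the 91 members (purple) and the 18075 other genes (grey). Lrrc26, put in the family for its difference, lies at 1.35, and the remaining members run from -0.60 (Kcnh1) to 0.53 (Kcnj1).

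Arrays were more alike within a replicate number than within a group. Exactly equal deposited values occurred at 488 and 551 probe sets between arrays with the same number and at 0 in the 4 other pairs, though the labels name no batch. Over the 91 members, Pearson's r was 0.956 and 0.967 for arrays sharing a number, 0.947 within the ormeloxifene group and 0.933 within the vehicle group. Pairs sharing neither number nor group had 0.927 and 0.925. Over all genes r was 0.980 and 0.983 within a number, 0.973 within the ormeloxifene group and 0.963 within the vehicle group. These are correlations across genes of arrays that share probes, given as a description. The differences had the same sign within both numbers in 48 of the 90 members other than Lrrc26 (53.3%; 52.3% of all genes).

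**Figure D4:**
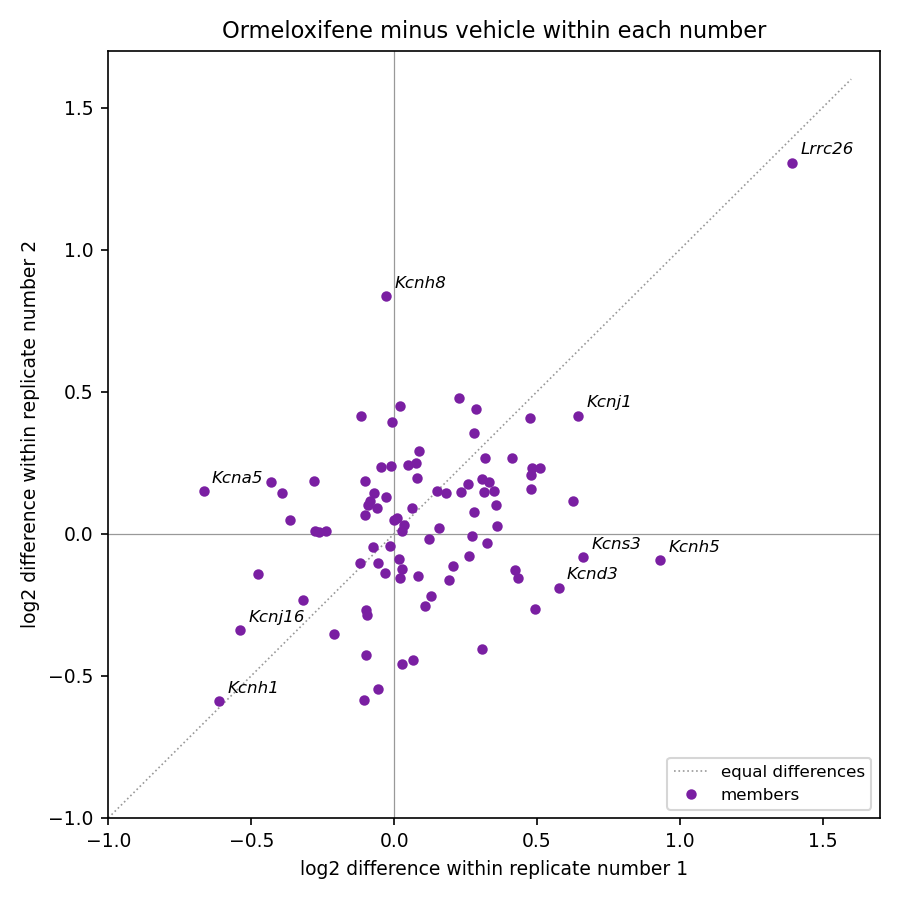
Log2 difference, ormeloxifene minus vehicle, within replicate number 1 (x axis) and within number 2 (y axis), 1 point per member; the dotted line marks equal differences. Lrrc26 (1.39 and 1.31) and Kcnh1 (-0.61 and -0.59) lie near the line, whereas Kcnh5 (0.93 and -0.09) and Kcnh8 (-0.03 and 0.84) differ within 1 number only.

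Among voltage-gated channels, 2 of 14 pore subunits of the Kcna to Kcnd families were above the reference on all arrays. Kcnd3, the pore of a rapidly inactivating A-type channel that is found in myometrium, read 7.22 and 7.56 with vehicle and 7.80 and 7.37 with ormeloxifene; the groups overlapped. Kcnb2, a delayed rectifier, ran from 6.71 to 6.94. The Kcna genes, which encode channels of the Shaker type, were mostly dim: Kcna5, a channel of vascular muscle, ran from 4.66 to 5.47 and Kcna3, best known from lymphocytes, from 5.53 to 6.75. The 14 pore subunits were higher in 7 and lower in 7, at a median of 0.05. The 10 modifier subunits (Kcnf, Kcng, Kcns and Kcnv), which form no channel alone, were higher in 4 and lower in 6; only Kcng3, at 6.23 to 6.63, was above the reference on all arrays. Kcns2, a silent partner of the Kcnb channels, read 6.0 and 5.97 with vehicle and 5.90 and 5.39 with ormeloxifene. It was above the reference on 1 array, and the groups did not overlap; the difference was -0.35 ± 0.24, or -0.09 without ormeloxifene replicate 2 and -0.60 without ormeloxifene replicate 1.

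Genes grouped here as cytoplasmic auxiliary subunits (Kcnab, Kcnip and Kcnrg) were bright in 4 of 8. With ormeloxifene 8 of 8 were higher, with a median of 0.14 and 0 at an unadjusted p under 0.05 by limma. Among all genes 9702 of 18166 were higher. All 8 were higher on the values as deposited and with centred arrays too, at medians of 0.12 and 0.10, which rescale the same arrays. Within replicate number 1 the difference was -0.03 for Kcnab2 and -0.07 for Kcnip2. Within number 2 it was -0.129 for Kcnip3 and -0.008 for Kcnip4. Kcnab1, Kcnab3, Kcnip1 and Kcnrg were higher within both numbers. Kcnab1, a beta subunit of the Kcna channels, read 7.61 and 7.76 with vehicle and 8.09 and 7.99 with ormeloxifene. The groups did not overlap, and the difference was 0.36 ± 0.21 (limma, unadjusted p = 0.125). The smooth muscle marker list averaged 9.49 and 9.22 with vehicle and 9.75 and 9.53 with ormeloxifene; whether it had a part in this difference was not tested. Kcnip1, Kcnip3 and Kcnip4 encode calcium-binding partners of the Kcnd channels. Kcnip1 ran from 7.47 to 8.0, Kcnip4 from 6.84 to 7.30 and Kcnip3, whose product also binds DNA as a repressor, from 7.86 to 8.28, with overlap between the groups in all 3.

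KCNQ pores and their KCNE partners, which carry slow voltage-gated currents in muscle and basolateral currents in epithelia, were above the reference on all arrays in 4 of 8. Kcne4, an inhibitory partner, read 8.0 and 8.47 with vehicle and 8.0 and 8.51 with ormeloxifene. The replicates of the groups lay 0.46 and 0.51 apart and the groups coincided. Kcnq1 ran from 6.68 to 7.06. Kcne3, which holds KCNQ1 open in epithelia, read 6.83 and 7.54 with vehicle and 6.62 and 7.19 with ormeloxifene, a difference of -0.28 ± 0.31 that turned to 0.07 without vehicle replicate 2. Kcne2, known from gastric and thyroid epithelium, read 6.76 and 6.53 with vehicle and 6.44 and 6.29 with ormeloxifene; the groups did not overlap, and the difference was -0.28 ± 0.21. Kcne1 was dim, between 5.00 and 5.48, with a difference of -0.31 ± 0.22. Kcnq5, found in smooth muscle, was above the reference on 3 arrays and differed by 0.37 ± 0.31, or -0.01 without vehicle replicate 1.

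The ether-a-go-go family held the largest difference towards lower signal. Kcnh1 (17683245), a channel best known from brain and from dividing cells, read 7.67 and 7.60 with vehicle and 7.06 and 7.01 with ormeloxifene. All 4 arrays were above the reference, replicates differed by 0.07 and 0.05, and the groups did not overlap. The difference was -0.60 ± 0.20, a 1.52-fold lower signal, with a 95% interval from -1.07 to -0.13. It did not pass by limma (unadjusted p = 0.0190, adjusted p = 1.00). Over the 9 alternative settings the difference ran from -0.64 to -0.57, and only the scalings and left-out arrays among them could move it. Kcnh2, the pore of the ERG channel that shapes the contractions of the pregnant uterus, read 7.01 and 7.14 with vehicle and 7.19 and 7.29 with ormeloxifene, without overlap, and all 4 arrays were above the reference. The dim Kcnh5 and Kcnh8, both channels of brain, differed by 0.42 ± 0.29 and 0.41 ± 0.35. In Kcnh8 1 array set the value: vehicle replicate 2 read 4.55 and the other 3 lay between 5.39 and 5.65, so that the difference was -0.14 without that array. Kcnh5 read 4.44 on ormeloxifene replicate 1 and between 3.51 and 3.73 on the other 3. Without that array its difference was 0.02.

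Of the 15 inward rectifiers, which pass potassium best near rest, 1 was above the reference on all arrays. Kcnj8, the pore of an ATP-sensitive channel of smooth muscle and pericytes, read 7.91 and 7.29 with vehicle and 7.98 and 7.54 with ormeloxifene. Replicate 1 was the higher in each group, and the groups overlapped. Its sulphonylurea receptor partner Abcc9, named here for this pairing, ran from 7.39 to 7.68. The other ATP-sensitive pore, Kcnj11, was dim at 5.14 and 4.54 with vehicle and 5.62 and 4.95 with ormeloxifene, a difference of 0.44 ± 0.31 that ran from 0.105 to 0.778 without 1 array in turn. Kcnj2, a classical strong rectifier, ran from 5.29 to 6.17 and Kcnj13, whose knockdown in myometrium lengthens contractions, from 4.80 to 5.37.

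The remaining inward rectifiers with large differences were all below the reference on all arrays. Kcnj1 (17842951), the secretory channel of the kidney, read 4.11 and 4.12 with vehicle and 4.75 and 4.53 with ormeloxifene. Its difference of 0.53 ± 0.21 had an unadjusted p of 0.0364 and an adjusted p of 1.00 by limma. Kcnj16, a partner of Kcnj10 in epithelia, read 4.55 and 4.07 with vehicle and 4.01 and 3.73 with ormeloxifene, a difference of -0.44 ± 0.24. Kcnj10 differed by -0.26 ± 0.23. Without 1 array in turn the difference ran from -0.676 to -0.203 for Kcnj16 and from -0.481 to -0.046 for Kcnj10. Also dim was Kcnj5, a G protein-gated channel of heart, with a difference of 0.37 ± 0.32. Over the 15 genes, 11 were higher and 4 lower, at a median of 0.095, where 9702 of all 18166 genes were higher.

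Tandem-pore channels, which carry background currents, were above the reference on all arrays in 5 of 13: Kcnk1, Kcnk2, Kcnk3, Kcnk5 and Kcnk6. Kcnk1 (17731202), the weakly conducting TWIK1, read 9.18 and 9.65 with vehicle and 9.08 and 9.38 with ormeloxifene. The groups overlapped, and the difference was -0.18 ± 0.25, or 0.05 without vehicle replicate 2. Kcnk2, the stretch-activated TREK1 of myometrium, read 6.44 and 6.15 with vehicle and 6.86 and 6.42 with ormeloxifene. Its relative Kcnk4 was below the reference throughout, between 5.35 and 5.79. The acid-sensitive TASK1 gene Kcnk3 ran from 6.65 to 6.79. Kcnk5, an acid-sensitive channel of epithelia, read 6.68 and 7.25 with vehicle and 6.62 and 6.71 with ormeloxifene, a difference of -0.30 ± 0.25, or -0.02 without vehicle replicate 2. Kcnk6 gave 0.14 at its brighter probe set and -0.21 at the other, and a pseudogene copy is annotated, so its value is uncertain.

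Of the 3 calcium-activated channels of small and intermediate conductance, Kcnn1 and Kcnn3 were above the reference on all arrays and Kcnn4 on 3. Kcnn3, encoding SK3, a channel that damps uterine contraction, read 7.67 and 7.50 with vehicle and 7.96 and 7.94 with ormeloxifene. The groups did not overlap, and the difference was 0.36 ± 0.21 with a 95% interval from -0.12 to 0.84. It did not pass by limma (unadjusted p = 0.119). The smooth muscle marker list given above lay higher with ormeloxifene as well, and its part in this difference was not tested. Kcnn4, the intermediate channel of epithelia and blood cells, read 6.05 and 6.53 with vehicle and 6.41 and 6.63 with ormeloxifene, and Kcnn1 ran from 6.11 to 6.30.

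**Figure D5:**
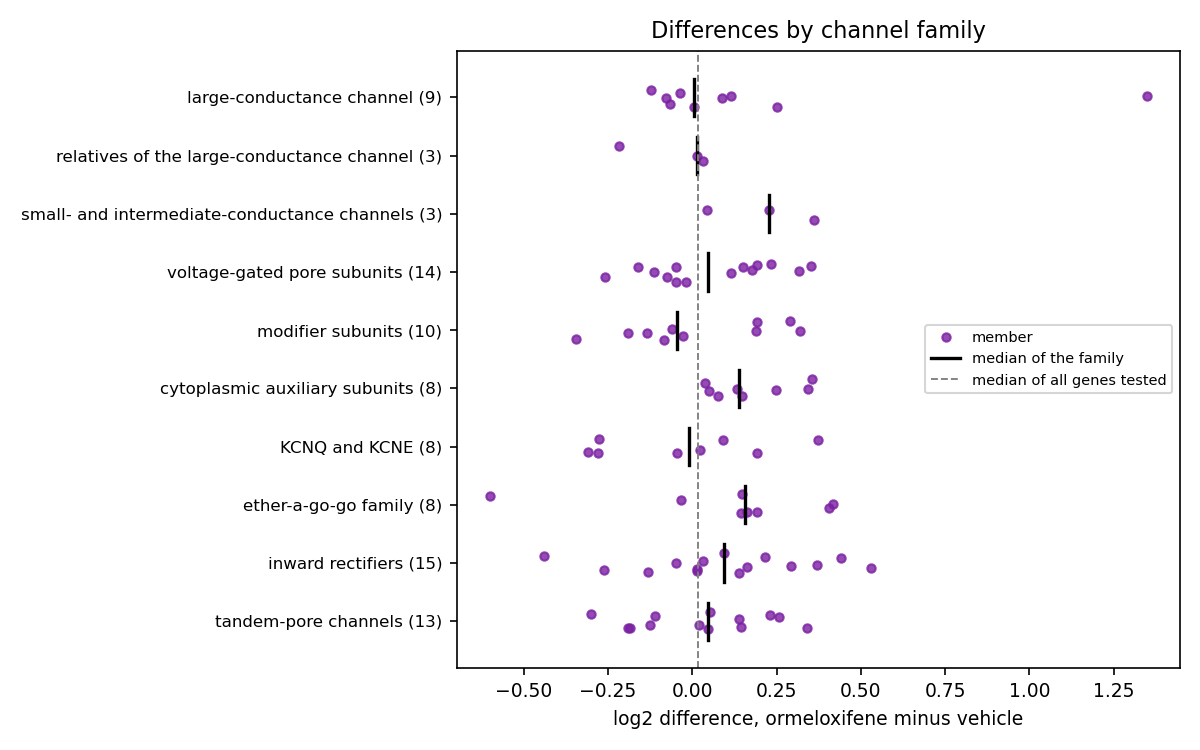
Log2 difference, ormeloxifene minus vehicle (x axis), of each member by channel family (y axis, number of members in brackets); bars mark the family median and the dashed line the median of all genes tested, 0.02. Family medians run from -0.04 for the modifier subunits to 0.23 for the channels of small and intermediate conductance. The point at 1.35 is Lrrc26, put in the family for its difference.

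Genes that work beside potassium channels were taken as a list of 55, of which 49 were measured. They were higher in 30 and lower in 19, at a median of 0.06. By limma, 3 (6.12%) had an unadjusted p under 0.05, against 2.20% of all genes, and 0 passed the adjusted threshold. The list was drawn up with earlier results of these data known, so nothing is read from its share beside that of all genes. Atp1b1, a beta subunit of the sodium-potassium pump that brings potassium back into the cell, read 8.84 and 8.84 with vehicle and 9.48 and 9.42 with ormeloxifene. The groups did not overlap, as held for 25.7% of all genes, and the difference was 0.61 ± 0.20 (limma, unadjusted p = 0.0176, adjusted p = 1.00). Atp1b1 is named for its p, which small gaps between replicates favour, so nothing is read from those gaps. Atp1b3 of the same pump ran from 10.68 to 10.84, and the pump modulator Fxyd4 had the lowest difference of that group, -0.38 ± 0.28. Leaving out vehicle replicate 2 gave -0.07, and leaving out vehicle replicate 1 gave -0.68. Trpc4, a cation channel of smooth muscle, read 5.94 and 6.29 with vehicle and 6.84 and 6.53 with ormeloxifene, a difference of 0.57 ± 0.23 (unadjusted p = 0.0421, adjusted p = 1.00). Slc12a1, the kidney cotransporter of sodium, potassium and chloride, differed by 0.59 ± 0.22 but was dim, below the reference on all arrays.

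Calcium entry and release genes, the counterparts of potassium channels in muscle excitation, were higher in 18 of 22, at a median of 0.10, from -0.19 for the calcium pump Atp2a2 to the 0.57 of Trpc4; among all genes 9702 of 18166 were higher. The median was 0.27 within replicate number 1 and -0.02 within number 2, and the list averaged 7.08 and 7.13 with vehicle and 7.33 and 7.12 with ormeloxifene, so that ormeloxifene replicate 1 alone lay high. The part of the smooth muscle markers, higher in 8 of 8, was not tested. Chloride, sodium and secretion genes were lower in 6 of 7, where 8464 of all 18166 genes were lower, at a median of -0.15. That median was -0.20 on the values as deposited and -0.225 with centred arrays, -0.08 within number 1 and -0.32 within number 2. The differences ran from -0.36 ± 0.26 for the chloride channel Cftr, dim on all arrays, to 0.04 for Ano1, a calcium-activated chloride channel. Of the 4 potassium cotransporters, 2 were higher and 2 lower, with Slc12a7 lowest at -0.10. Direct partners, which form complexes with potassium channels or share their fold, were higher in 5 and lower in 3 of 8, from -0.24 for Dpp10 to 0.21 for Lingo1.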

How the data were processed

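Affymetrix Expression Console is the tool named in the submitters' processing notes; version, summary method and genome build were not given in the sources used here. In the deposited table the authors give log2 values of 36685 probe sets on 4 arrays; the scale was read from the values (0.92 to 13.59). Column medians differed (5.67 to 5.93), so quantile normalization was applied over all probe sets. By platform annotation 18511 probe sets had 1 symbol, 575 had several and 17599 had none; the brightest probe set per gene left 18166 genes. All 91 members matched the GRCr8 annotation by gene number.

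Differences are ormeloxifene minus vehicle with standard errors from limma 3.58.1 in R 4.3.3 (lmFit and eBayes, two-sided, Benjamini-Hochberg over all genes, threshold 0.05; 7.55 degrees of freedom after moderation), tested on simulated data. Replicates are labelled biological, and p-values measure only the spread between these samples. The main fit did not pair arrays by replicate number, so any shift between the numbers is part of that spread. Members and lists were chosen with earlier results of these data known. Named were the members above the reference on all arrays among the 20 brightest, the 8 largest differences in each direction, members at an unadjusted p under 0.05, the large-conductance subunits and a list of channels with known roles in myometrium or epithelium; in the other lists, genes at an unadjusted p under 0.05 and the extremes. Kcna3, Kcng3, Kcnn1, Kcnk6's second probe set, Atp1b3, Abcc9, the neighbours of Lrrc26 and the relatives of the large-conductance channel were named outside the rule, after their values were seen. Alternatives were other scalings, the replicate number as a block, filters and left-out arrays.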

Additional observations from a re-analysis of the deposited data

How the results depend on the processing

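The count of genes past the adjusted threshold was 0, and 0 on the values as deposited and with all probe sets tested. It was 1 with arrays centred on their medians or a gene's probe sets averaged, 4 with the dimmest genes left out or with limma's trend and robust options, 5 with the replicate number as a block, and 0 to 3 without 1 array. No member other than Lrrc26, whose difference was not tested, was among these genes in any of these settings. The number of members other than Lrrc26 at an unadjusted p under 0.05 was 2; it was 0 as deposited (0.782% of all genes), 1 with centred arrays (1.62%), the signal filter (2.66%), trend and robust options (2.35%) or all probe sets (2.42%), 4 with the block (Kcnh1, Kcnj1, Kcnj11 and Kcnj16; 6.76% of all genes), and 1 to 5 without 1 array (1.7% to 5.2%). Without vehicle replicate 2 it was 5, and Kcnj1 was not among them; without either ormeloxifene array or without vehicle replicate 1, Kcnh1 was not either. The median difference over members, 0.053, was 0.067 as deposited, 0.046 with centred arrays, 0.04 with the signal filter and 0.025 to 0.096 without 1 array. Members above the receptor reference numbered 23, 11 at the 99th percentile of the receptors and 23 to 30 without 1 array. Where an array was left out, the lone array of its group was taken to vary like the other group.

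Some differences turned sign. Not all of these were small: Kcnh8 (0.405), Kcnq5 (0.372), Kcnj5 (0.371) and Kcne3 (-0.281) were among the 8 largest in their direction. Kcnmb1 was -0.027 as deposited and -0.048 with centred arrays. Without 1 array in turn, the differences that changed sign ran from -0.227 to 0.236 for Kcnmb1, -0.588 to 0.341 for Kcnmb2, -0.168 to 0.094 for Kcnmb4, -0.199 to 0.064 for Lrrc38, -0.264 to 0.493 for Lrrc52 and -0.233 to 0.075 for Lrrc55. They ran from -0.635 to 0.073 for Kcne3, -0.141 to 0.951 for Kcnh8, -0.069 to 0.812 for Kcnj5, -0.421 to 0.053 for Kcnk1 and -0.008 to 0.752 for Kcnq5. For Ano1 they ran from -0.091 to 0.168 and for Slc12a7 from -0.287 to 0.087. The cause was not tested.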
